A study of Mus musculus with 24 samples.

Results

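The genes described here are 10 mouse genes that act in, or respond to, the Ras-Erk pathway: the Sprouty genes Spry1, Spry2 and Spry4, the related Spred1 and Spred2, the phosphatase genes Dusp4 and Dusp6, the transcription factor genes Etv4 and Etv5, and Ccnd1, which encodes cyclin D1. They were chosen by name, and all 10 were found among the 24319 genes of each of 2 deposited tables. In this pathway a growth factor receptor recruits adaptors and the phosphatase Shp2, and Ras then activates the kinases Raf, Mek and Erk. Active Erk raises the transcription of genes whose products restrain it: Sprouty and Spred proteins act near Ras and Raf, and Dusp4 and Dusp6 remove the activating phosphates from Erk. Etv4 and Etv5 are Ets family factors induced by the same signal, and cyclin D1 drives passage through the G1 phase of the cell cycle, also in hepatocytes, the metabolic cells that make up most of the liver's mass.

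PolyA RNA was sequenced from 24 samples, 12 of whole liver and 12 of isolated hepatocytes, all from male mice aged 2 months. There were 4 genotypes per tissue, each with 3 biological replicates: Double KO (Alb-Cre+;IkkBf/f;Shp2f/f), Shp2 KO (Alb-Cre+;Shp2f/f), IkkB KO (Alb-Cre+;IkkBf/f) and wild type (WT), all of strain C57/BL6. Cre was driven by the albumin promoter, which is active in hepatocytes and their precursors. Endothelial cells, macrophages and other liver cells that do not descend from such precursors keep the targeted genes in the knockouts. Whether bile duct cells keep them was not tested. No group with Cre alone or floxed alleles alone is among these samples. The authors' tables hold 1 value per gene and genotype, which is FPKM (a level scaled by transcript length and sequencing depth) by the convention of the program Cuffdiff. They hold no value per replicate, so no SD can be given and the depth is unknown. The only measure of replicate error is the authors' Cuffdiff q-value, and "rose", "fell" or "passed" below mean a q under 0.05. Each table was normalized on its own, so no test compares a level in liver with a level in hepatocytes. In bulk RNA, fewer cells of a type and less RNA per cell cannot be told apart.

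The deletions were visible in the targeted genes. Ptpn11, which encodes Shp2, was 6.09 in Double KO, 4.09 in Shp2 KO and 10.1 in IkkB KO, against 12.5 in WT liver, and 5.77, 4.46, 14.5 and 16.3 in hepatocytes of those genotypes in that order. Ikbkb, which encodes IkkB, was 6.31 in Double KO, 14.2 in Shp2 KO and 9.48 in IkkB KO, against 15.7 in WT liver, and 5.29, 15.1, 7.16 and 17.3 in hepatocytes. Ttr, a hepatocyte marker, lay between 4469 and 10049 in all 8 groups, while Alb was listed at 0 in all of them with Cuffdiff's status for too many reads. Macrophage, stellate cell and endothelial markers were present in the hepatocyte preparations too, with sums lowest in WT. The summed level of 10 macrophage markers was 202 in Double KO, 163 in Shp2 KO and 201 in IkkB KO, against 65.4 in WT hepatocytes. For 10 stellate cell and fibroblast markers it was 66.2, 57.7, 118.7 and 30.2, and for 10 endothelial markers 71.8, 43.9, 77.5 and 39.0, in hepatocytes of the same genotypes. Single genes made up much of these sums: in IkkB KO hepatocytes Dcn was 84.8 of the 118.7 and Clec4g 45.3 of the 77.5. The 5 hepatocyte markers that could be summed came to 11330, 8818, 10889 and 11617 in hepatocytes, most of it Ttr. Another of the 5, Cyp3a11, was 1155 in Double KO, 1645 in Shp2 KO and 88.0 in IkkB KO, against 175 in WT hepatocytes. This sum therefore does not track hepatocyte content alone. The 10 lymphocyte markers came to 1.90, 1.62, 3.58 and 1.18. The 9 bile duct markers came to 63.6, 46.4, 32.9 and 20.2, most of it Spp1; without Spp1, left out after its values were seen, the other 8 came to 7.92, 7.88, 7.51 and 7.53. Another of them, Sox9, was 0.623 in Double KO, 0.374 in Shp2 KO and 1.11 in IkkB KO, against 1.36 in WT hepatocytes.

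Per unit of transcript length, Ccnd1 and Dusp6 were the most abundant of the 10 genes in every group and Etv4 the least. In liver the order was Ccnd1 before Dusp6 in all 4 genotypes. In hepatocytes Ccnd1 came first in Double KO and Shp2 KO, and Dusp6 came first in IkkB KO and WT. In both tables Spry4 came directly after these 2 genes in WT, and in Double KO and Shp2 KO Spry1 held that place. Neighbours in these orders cannot be tested against each other, since no replicate values are given. The plot of deposited values by genotype shows all 10 genes on 1 scale.

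**Figure D1:**
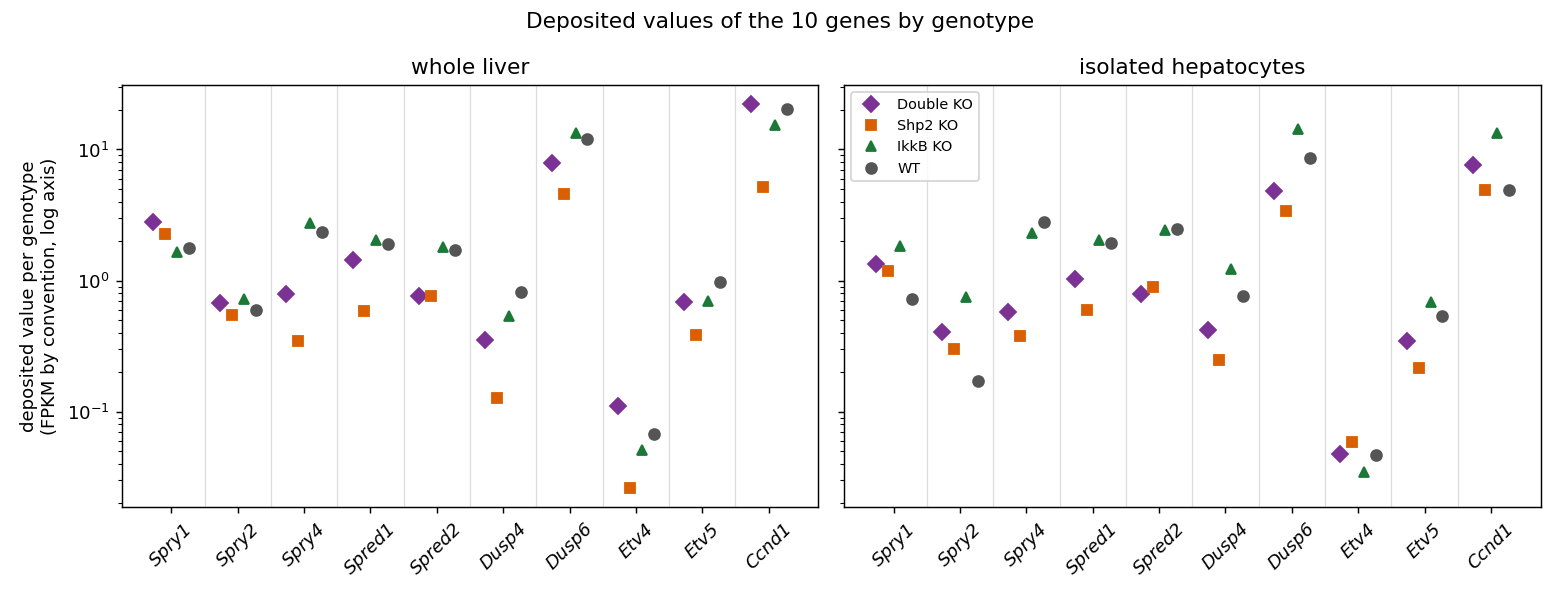
Deposited value per genotype (FPKM by convention, log axis) of the 10 genes, in whole liver on the left and isolated hepatocytes on the right; each point is the authors' value over 3 replicates, with no error available. Spry4, Spred1, Spred2, Dusp4, Dusp6 and Etv5 are lower in Shp2 KO than in WT in both panels, Ccnd1 in liver alone, and Etv4 is near the bottom throughout.

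Among the Sprouty genes, whose proteins bind adaptors and Raf and limit Ras activation, Spry4 was low wherever Shp2 was deleted, and Spry1 and Spry2 were not. Spry4 was 0.793 in Double KO, 0.346 in Shp2 KO and 2.75 in IkkB KO, against 2.33 in WT liver. The hepatocyte values were 0.574 in Double KO, 0.375 in Shp2 KO and 2.29 in IkkB KO, against 2.78 in WT. Both genotypes that lack Shp2 were low and both that keep it were high, in each table. Shp2 KO held 14.8% of the WT value in liver and 13.5% in hepatocytes, with log2 fold changes of -2.75 (q = 0.000955) and -2.89 (q = 0.00048) in the authors' deposited table. Double KO held 34.0% and 20.6% of WT, with the same q-values in the authors' deposited table. IkkB KO against WT did not pass in the authors' deposited table, where q was 0.653 for liver and 0.478 for hepatocytes.

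Spry1 was 2.81 in Double KO, 2.26 in Shp2 KO and 1.65 in IkkB KO, against 1.77 in WT liver. Hepatocytes had 1.33 in Double KO, 1.18 in Shp2 KO and 1.82 in IkkB KO, against 0.729 in WT. Neither genotype without Shp2 was below WT in either table. Spry1 rose in IkkB KO hepatocytes by a log2 fold change of 1.32 (q = 0.00913 in the authors' deposited table), beside summed macrophage, endothelial and stellate cell markers that were 3.08, 1.98 and 3.93 times the WT sums. In Double KO liver Spry1 exceeded IkkB KO liver (q = 0.0424 in the authors' deposited table), and against WT it did not pass (q = 0.0836).

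Spry2 was 0.6699 in Double KO, 0.544 in Shp2 KO and 0.718 in IkkB KO, against 0.595 in WT liver, and no pair of liver genotypes passed (q from 0.631 to 0.945 in the authors' deposited table). In hepatocytes it was 0.402 in Double KO, 0.301 in Shp2 KO and 0.745 in IkkB KO, against 0.1697 in WT. WT was the lowest hepatocyte group and IkkB KO the highest. Spry2 rose in IkkB KO hepatocytes by a log2 fold change of 2.13 (q = 0.00442 in the authors' deposited table), beside the same marker sums. Cuffdiff did not test it between Shp2 KO and WT hepatocytes. The part of other cell types in the values of Spry1 and Spry2 was not tested.

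Spred1 and Spred2 encode Sprouty-related inhibitors, and Spred1 is known to bring neurofibromin, which switches Ras off, to the membrane. Spred1 was 1.43 in Double KO, 0.583 in Shp2 KO and 2.04 in IkkB KO, against 1.91 in WT liver. The hepatocyte values were 1.03 in Double KO, 0.6005 in Shp2 KO and 2.05 in IkkB KO, against 1.92 in WT. Shp2 KO was the lowest group in both tables, and Double KO lay between Shp2 KO and WT. Spred1 fell in Shp2 KO, and the authors' deposited table gives log2 fold changes of -1.72 for liver (q = 0.000955) and -1.67 for hepatocytes (q = 0.00048). Double KO passed against WT in hepatocytes (q = 0.0138) and did not in liver (q = 0.285), in the authors' deposited table.

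Spred2 was 0.764 in Double KO, 0.758 in Shp2 KO and 1.81 in IkkB KO, against 1.71 in WT liver. Hepatocytes had 0.793 in Double KO, 0.895 in Shp2 KO and 2.43 in IkkB KO, against 2.47 in WT. The groups formed 2 levels in each table, low in both genotypes without Shp2 and high in both with it. Spred2 fell in Shp2 KO, and the authors' deposited table gives log2 fold changes of -1.17 for liver (q = 0.00315) and -1.47 for hepatocytes (q = 0.00263). In Double KO against WT it also fell, with log2 fold changes of -1.16 in liver (q = 0.00676) and -1.64 in hepatocytes (q = 0.00089) in the authors' deposited table. Double KO against Shp2 KO did not pass, with q of 0.994 for liver and 0.844 for hepatocytes in the authors' deposited table.

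The phosphatase genes also fell in Shp2 KO. Dusp6, whose protein acts on Erk in the cytoplasm, was 7.91 in Double KO, 4.61 in Shp2 KO and 13.3 in IkkB KO, against 12.1 in WT liver. In hepatocytes it was 4.82 in Double KO, 3.401 in Shp2 KO and 14.4 in IkkB KO, against 8.64 in WT. Shp2 KO was the lowest group, Double KO the next and IkkB KO the highest in both tables. Dusp6 fell in Shp2 KO, and the authors' deposited table gives log2 fold changes of -1.39 for liver (q = 0.000955) and -1.35 for hepatocytes (q = 0.00048). Double KO was at 65.4% of WT in liver and 55.7% in hepatocytes (q = 0.0205 and 0.00413 in the authors' deposited table). IkkB KO hepatocytes were at 167% of WT (q = 0.00636 in the authors' deposited table), and in liver the same pair had q = 0.807.

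Dusp4, whose protein acts in the nucleus, was 0.352 in Double KO, 0.126 in Shp2 KO and 0.536 in IkkB KO, against 0.818 in WT liver. The hepatocyte values were 0.417 in Double KO, 0.249 in Shp2 KO and 1.22 in IkkB KO, against 0.768 in WT. Its levels were below 1 in 7 of 8 groups, and Shp2 KO was again the lowest in both tables. Dusp4 fell in Shp2 KO, and the authors' deposited table gives log2 fold changes of -2.70 for liver (q = 0.000955) and -1.63 for hepatocytes (q = 0.0151). Double KO passed against WT in liver (q = 0.0234) and did not in hepatocytes (q = 0.22), in the authors' deposited table.

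Of the Ets factors, Etv5 was 0.683 in Double KO, 0.384 in Shp2 KO and 0.697 in IkkB KO, against 0.979 in WT liver. Hepatocytes had 0.347 in Double KO, 0.215 in Shp2 KO and 0.685 in IkkB KO, against 0.5401 in WT. Shp2 KO was the lowest in both tables. Etv5 fell there, with log2 fold changes of -1.35 in liver (q = 0.00175) and -1.33 in hepatocytes (q = 0.0409) in the authors' deposited table, and no other pair of genotypes passed for it in either table. The hepatocyte call did not hold when p was adjusted within that pair alone. Etv4 was 0.1098 in Double KO, 0.0261 in Shp2 KO and 0.0505 in IkkB KO, against 0.0676 in WT liver, and between 0.0348 and 0.05899 in the 4 hepatocyte groups. Cuffdiff tested it in no pair, so no difference in Etv4 can be called at these levels.

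Upstream sequence is shown for Dusp6 and Etv5, which fell in Shp2 KO in both tables, and for Spry1, which did not. RefSeq promoters on GRCm38.p6, a build other than the mm9 of the tables, were used for 6 of the 10 genes, in 7 windows. Spry4 was left out by its chromosome, and Dusp4, Etv4 and Ccnd1 had no entry. The 250 bases before each start were searched on both strands for the Cic octamers TGAATGAA and TGAATGGA, the Ets core CCGGAAG, the AP-1 site TGANTCA and the cyclic AMP response element TGACGTCA. Capicua (Cic) is a repressor that Erk signalling releases from octamers of this kind, known to control Etv5. These motifs occurred in 1.08%, 1.01%, 6.91%, 6.75% and 1.55% of all 32851 windows, in that order, and none was in the windows of these genes. After the windows had been seen, TGAATG, the start of both octamers, was searched too and is in capitals below, as CATTCA where it lies on the other strand. It occurred once in the Dusp6 window and 3 times in 1 of the 2 Etv5 windows, against 10.9% of all windows with at least 1 and 0.131% with at least 3. The other Etv5 window, not shown, and the windows of Spry1, Spry2, Spred1 and Spred2 held none. Spred1 and Spred2 also fell in Shp2 KO in both tables, so genes that fell were found both with and without these letters. The shares of all windows are no test here, since the letters were chosen after the windows had been seen. The match says nothing of binding.
Dusp6, GRCm38.p6 chr10:99262981-99263230, plus strand: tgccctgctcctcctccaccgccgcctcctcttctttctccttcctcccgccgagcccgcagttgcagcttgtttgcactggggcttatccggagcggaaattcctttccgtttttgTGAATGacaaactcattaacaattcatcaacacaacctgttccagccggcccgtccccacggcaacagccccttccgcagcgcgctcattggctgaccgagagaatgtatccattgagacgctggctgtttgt
Etv5, GRCm38.p6 chr16:22438369-22438618, minus strand: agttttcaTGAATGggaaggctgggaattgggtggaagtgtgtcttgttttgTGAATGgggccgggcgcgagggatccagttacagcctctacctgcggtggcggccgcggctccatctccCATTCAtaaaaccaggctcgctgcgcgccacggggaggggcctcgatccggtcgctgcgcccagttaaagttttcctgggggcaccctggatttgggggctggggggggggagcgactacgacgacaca
Spry1, GRCm38.p6 chr3:37639697-37639946, plus strand: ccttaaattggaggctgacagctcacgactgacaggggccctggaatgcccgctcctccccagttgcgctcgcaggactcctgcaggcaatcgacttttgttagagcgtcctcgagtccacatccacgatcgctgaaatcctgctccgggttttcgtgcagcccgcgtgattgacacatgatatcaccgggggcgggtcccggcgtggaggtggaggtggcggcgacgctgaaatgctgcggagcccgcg

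Ccnd1 was low in Shp2 KO in liver but not in hepatocytes when set against WT. In liver it was 22.2 in Double KO, 5.14 in Shp2 KO and 15.3 in IkkB KO, against 20.3 in WT. In hepatocytes it was 7.67 in Double KO, 4.95 in Shp2 KO and 13.4 in IkkB KO, against 4.93 in WT. Shp2 KO stood alone as low in liver, and in hepatocytes Shp2 KO and WT were both low. Ccnd1 fell in Shp2 KO liver to 25.3% of WT, a log2 fold change of -1.98 (q = 0.000955 in the authors' deposited table), whereas Shp2 KO hepatocytes were at 100.4% of WT (q = 0.993). In Double KO liver it was at 109% of WT (q = 0.844 in the authors' deposited table) although Ptpn11 was at 6.09 against 12.5, and it exceeded Shp2 KO liver by a log2 fold change of 2.11 (q = 0.000955). In hepatocytes Double KO exceeded WT (q = 0.0269) and Shp2 KO (q = 0.0214) and lay below IkkB KO (q = 0.00127), in the authors' deposited table. The calls of Double KO against WT and against Shp2 KO hepatocytes did not hold when p was adjusted within each pair alone. IkkB KO hepatocytes were at 272% of WT (q = 0.00048 in the authors' deposited table), and IkkB KO liver at 75.3% (q = 0.162).

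Marker sums of other cell types also differed between the groups in which Ccnd1 differed. Endothelial markers summed to 82.8 in Double KO, 58.6 in Shp2 KO and 81.0 in IkkB KO, against 84.1 in WT liver, so Shp2 KO was the lowest, as for Ccnd1. Of the 10 endothelial markers, 4 fell in Shp2 KO liver, against 4.10% of all tested genes that fell: Kdr, Lyve1, Oit3 and Tek, the last 3 named after their values were seen. Bile duct markers (9 genes) summed to 151 in Double KO, 52.3 in Shp2 KO and 41.2 in IkkB KO, against 66.9 in WT liver, and without Spp1 to 13.9, 10.4, 10.1 and 14.4. Macrophage markers summed to 440.1, 232, 223 and 168, and stellate cell and fibroblast markers to 186, 106, 91.6 and 91.2, in liver of the same genotypes. Lymphocyte markers summed to 11.1, 4.76, 9.77 and 7.24 there, and the hepatocyte markers to 9070, 10387, 12139 and 11592. In IkkB KO hepatocytes, where Ccnd1 was highest, 8 of 10 endothelial, 9 of 10 macrophage and 9 of 9 tested stellate cell markers rose, against 7.60% of all tested genes that rose. In Shp2 KO hepatocytes 8 of 10 macrophage markers rose, against 7.13% of all tested genes, while Ccnd1 stayed at its WT value, and 0 of 10 endothelial markers passed by Cuffdiff, with 0 at an unadjusted p under 0.05. Their part in the Ccnd1 values was not tested. The plot of 5 genes beside marker sums sets these ratios together.

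**Figure D2:**
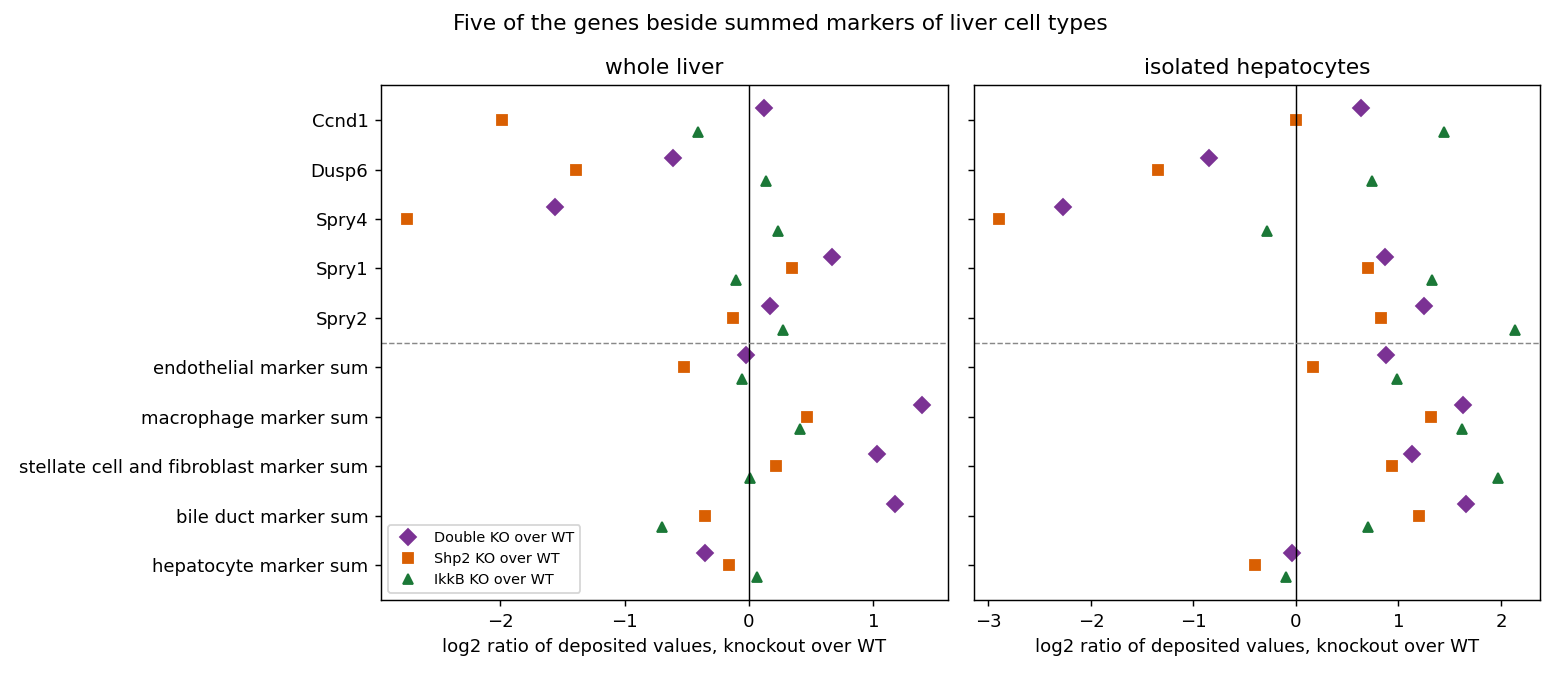
Log2 ratio of deposited values, knockout over WT, for 5 of the genes (above the dashed line) and for summed markers of 5 liver cell types (below it), in whole liver and isolated hepatocytes; each point is 1 genotype. The bile duct sum is mostly Spp1. In liver Ccnd1 and the endothelial sum are both lowest in Shp2 KO, at 25.3% of WT and 0.696 times WT, and in hepatocytes the macrophage sums are 2.496 to 3.09 times WT in all 3 knockouts, while Spry4 and Dusp6 are below WT in Double KO and Shp2 KO.

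Most of the 10 genes were lower in Shp2 KO than in WT in both tables. In liver 7 of 9 tested genes fell, against 4.10% of all tested genes that fell and 5.23% that rose; Etv4 was not tested. The median difference of the 9 was -0.69 on the log2(value + 1) scale, a scale that understates changes of low genes, and -0.03 over all tested genes. In hepatocytes 6 of 8 tested genes fell, against 4.53% of all tested genes that fell and 7.13% that rose, with a median of -0.68 and -0.008 over all. Spry4, Spred1, Spred2, Dusp4, Dusp6 and Etv5 fell in both tables, and Ccnd1 fell in liver. The Etv5 call in hepatocytes did not hold when p was adjusted within that pair alone. The genes were chosen with earlier results of both tables known, so these counts are not independent evidence for the pathway.

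IkkB KO against WT differed between the tables in which genes passed. In liver 0 of 9 tested genes passed by Cuffdiff, against 4.54% of all tested genes (2.37% rose and 2.17% fell), and at an unadjusted p under 0.05 there was 1, Ccnd1, which was lower. In hepatocytes 4 of 9 rose (Spry1, Spry2, Dusp6 and Ccnd1), against 7.60% of all tested genes that rose and 1.81% that fell, with a median of 0.33 and 0.001 over all. The difference between liver and hepatocytes was not tested. These 4 rises stand beside the higher marker sums of other cells in the same preparations, whose part in them was not tested. Of the 5 tested genes that did not pass there, Spry4, Spred1 and Spred2 lay between 82.3% and 107% of WT, Etv5 was at 127% and Dusp4 at 159%.

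**Figure D3:**
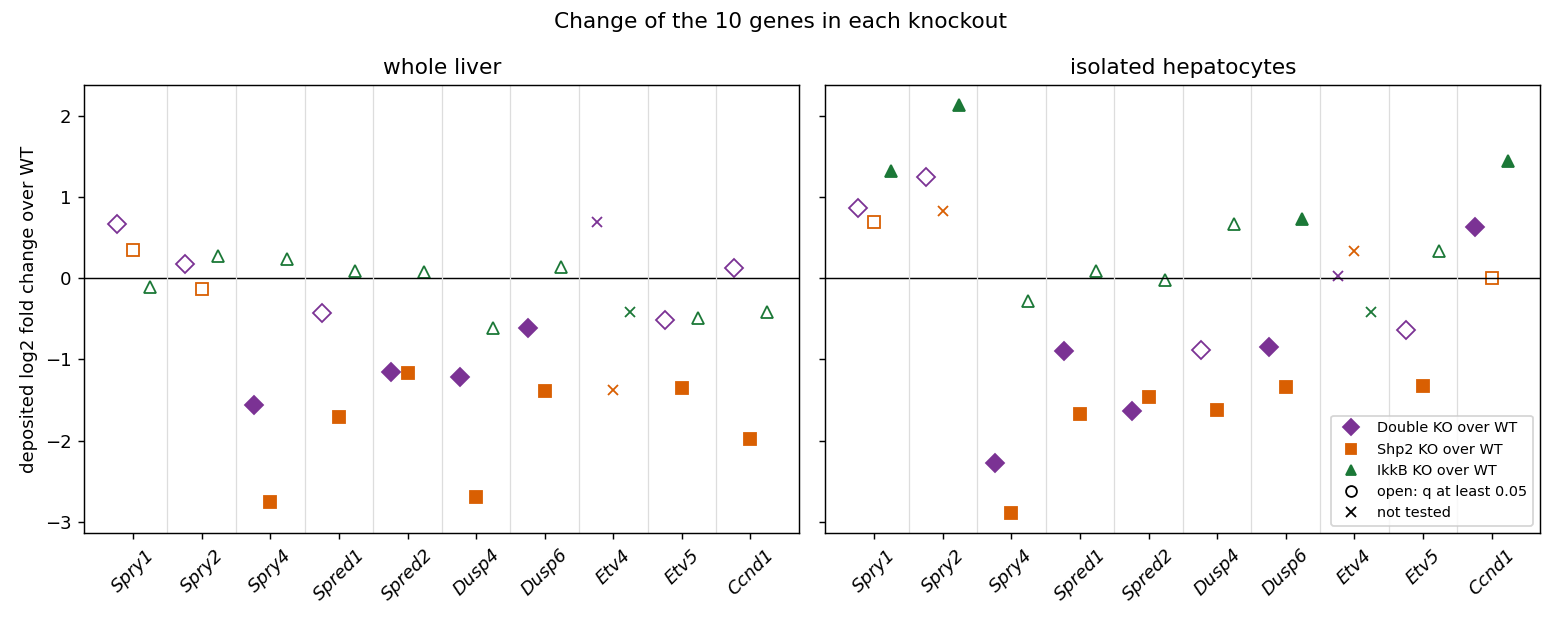
The authors' log2 fold change over WT of the 10 genes in Double KO, Shp2 KO and IkkB KO; filled points have q under 0.05, open points do not, and crosses were not tested. Shp2 KO has 7 filled points below 0 in liver and 6 in hepatocytes, and IkkB KO has none in liver and 4 above 0 in hepatocytes.

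In Double KO fewer of the genes passed against WT than in Shp2 KO, a difference that was not tested as such. Against WT, 4 of 9 tested genes fell in liver (Spry4, Spred2, Dusp4 and Dusp6), against 6.62% of all tested genes that fell and 11.5% that rose, with a median of -0.26 and -0.03 over all. In hepatocytes 4 fell (Spry4, Spred1, Spred2 and Dusp6), against 4.56% of all tested genes, and Ccnd1 rose, against 9.04%. The Ccnd1 call did not hold when p was adjusted within that pair alone. The median was -0.32 and 0.01 over all. The comparisons with WT share the WT samples, so their directions are not independent.

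Set directly against Shp2 KO, Double KO was higher for 5 of 9 tested genes in liver, against 7.94% of all tested genes. They were Spry4 (q = 0.0056), Spred1 (q = 0.00248), Dusp4 (q = 0.0397), Dusp6 (q = 0.00442) and Ccnd1 (q = 0.000955), in the authors' deposited table. Ptpn11 was higher in Double KO liver as well, 6.09 against 4.09 in Shp2 KO liver (q = 0.0226 in the authors' deposited table). In hepatocytes 1 of 9, Ccnd1, was higher, against 3.44% of all tested genes, and Ptpn11 was 5.77 in Double KO and 4.46 in Shp2 KO (q = 0.213 in the authors' deposited table). Spry4, Spred1, Dusp4 and Dusp6 were also above Shp2 KO in Double KO hepatocytes without passing (q from 0.0785 to 0.412 in the authors' deposited table). That Ptpn11 level's part in these values was not tested.

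Against IkkB KO, Double KO shows the levels when Shp2 is deleted in addition to IkkB. In hepatocytes 6 of 9 tested genes were lower in Double KO (Spry4, Spred1, Spred2, Dusp4, Dusp6 and Ccnd1), against 5.62% of all tested genes, with a median of -0.65 and -0.006 over all. The Dusp4 call there did not hold when p was adjusted within that pair alone. In liver 3 of 9 were lower (Spry4, Spred2 and Dusp6), against 7.50%, and Spry1 was higher, against 11.5%; the median was -0.18 and -0.002 over all. Shp2 KO was also compared directly with IkkB KO in liver, where 6 of 9 were lower in Shp2 KO (Spry4, Spred1, Spred2, Dusp4, Dusp6 and Ccnd1), against 4.84% of all tested genes. Spry4 in that pair was 0.346 in Shp2 KO and 2.75 in IkkB KO (q = 0.000955 in the authors' deposited table). The same pair was not analysed here for hepatocytes.

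The Double KO difference was also set beside the sum of the 2 single differences, all from WT on the log2(value + 1) scale, with no test and with WT samples shared. This scale compresses gaps of genes with values near or below 1, so gaps cannot be ranked between genes of unlike level. In liver Ccnd1 had the widest gap on this scale: 0.12 in Double KO, against a sum of -2.18. Spred1, Dusp4, Dusp6 and Etv5 exceeded their liver sums by 0.50 to 0.55, and Spry4 by 0.24. Spred2 had -0.62 in Double KO and a sum of -0.57, close to each other. The deposited log2 fold changes over WT, without the added 1, give Dusp4 a wide liver gap as well. For Dusp4 they were -1.22 in Double KO, -2.70 in Shp2 KO and -0.61 in IkkB KO liver. For Ccnd1 they were 0.12, -1.98 and -0.41 in the same order. In hepatocytes the largest gaps on the log2(value + 1) scale went the other way, for Ccnd1 (0.55 against a sum of 1.28), Spry1 (0.43 against 1.05) and Spry2 (0.26 against 0.73). Spry4 and Spred1 exceeded their hepatocyte sums by 0.40 and 0.28, as in liver. For Spred2, Dusp4 and Dusp6 the gap was -0.06, -0.14 and -0.27. The deposited log2 fold changes of Spry4 were -2.28 in Double KO, -2.89 in Shp2 KO and -0.28 in IkkB KO hepatocytes.

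**Figure D4:**
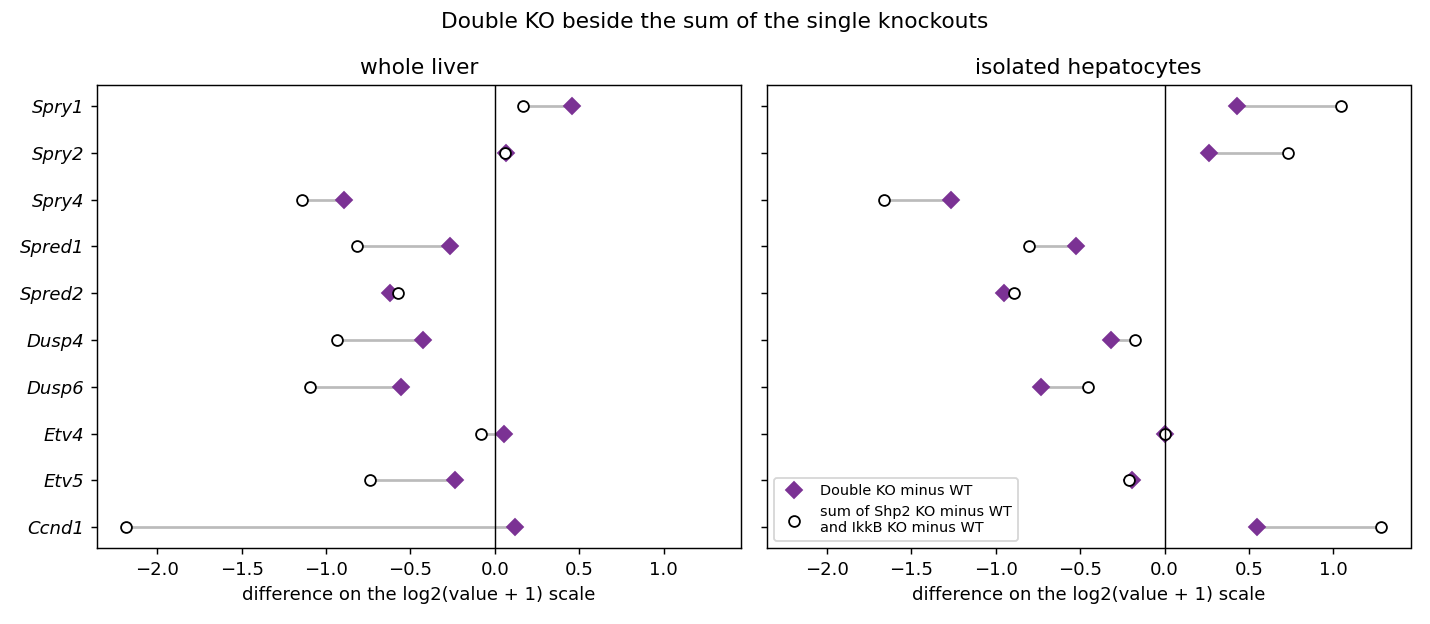
Difference from WT on the log2(value + 1) scale in Double KO (filled diamonds), beside the sum of the Shp2 KO and IkkB KO differences (open circles), for the 10 genes in whole liver and isolated hepatocytes. Ccnd1 in liver has the widest gap on this scale, 0.12 against -2.18, and Spred2 lies near its sum in both panels. The scale compresses gaps of genes with values near or below 1.

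Spry4, Spred1, Spred2, Dusp4, Dusp6 and Etv5, the 6 genes that fell in Shp2 KO in both tables, varied together across the 8 groups. They share low Shp2 KO values by that choice, so high correlations among them were in part fixed in advance. The same holds for the contrast with Ccnd1 and Spry1. After centring log2(value + 1) on each table's mean, Pearson's r over 8 values was 0.974 between Dusp4 and Etv5 and 0.967 between Spry4 and Spred2, and the lowest among these 6 genes was 0.803, between Spred2 and Etv5. With these 6, Ccnd1 had r from 0.344 (Spred2) to 0.766 (Etv5), and Spry1 had r from -0.44 (Spry4) to -0.04 (Dusp4). The 8 points come from 2 tables of 4 genotypes, and all 4 genotypes of a table share its normalization, so no p is given.

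Among 687 other genes with a value of at least 1 and a range of at least 1 on that scale in both tables, Hal, which encodes histidine ammonia-lyase, had the pattern most like Spry4 (r = 0.989 over the 8 values). Hal was 59.0 in Double KO, 35.5 in Shp2 KO and 137 in IkkB KO, against 119 in WT liver. Abca8a, a lipid transporter gene, and Plxnb1, a semaphorin receptor gene, followed with r = 0.986 and 0.976. Dusp6 was most like the adhesion gene Alcam (r = 0.973), then the glypican gene Gpc1 and Sntg2 (r = 0.9705 and 0.9704). Gpc1 was 0.656 in Double KO, 0.357 in Shp2 KO and 2.15 in IkkB KO, against 1.53 in WT liver. Ccnd1 had no gene as close: Slc26a10, the endothelial marker Lyve1 and the mucosal peptide gene Tff3 had r of 0.87, 0.869 and 0.862.

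Lists of related genes were counted for comparison. Of 14 further inhibitors of receptor and Ras signalling, 2 of 9 tested fell in Shp2 KO liver, against 4.10% of all tested genes, with a median of -0.05 and -0.03 over all. In Shp2 KO hepatocytes 1 of 10 rose, against 7.13%, with a median of -0.07 and -0.008 over all. The 2 were Lrig1 (4.97 in Shp2 KO and 9.06 in WT liver) and Lrig3 (1.61 and 2.54), transmembrane proteins of which Lrig1 is known to limit receptor signalling, and the 1 was Dok2, an adaptor gene of blood cells. Of 8 other MAP kinase phosphatases, Dusp1 fell and Dusp8 rose in Shp2 KO of both tables (7 tested in liver and 5 in hepatocytes), where 4.10% and 4.53% of all tested genes fell and 5.23% and 7.13% rose. Dusp1, which acts on stress kinases as well, was 16.8 in Double KO, 24.4 in Shp2 KO and 14.2 in IkkB KO, against 38.4 in WT liver. Unlike Dusp6 it also fell in IkkB KO liver (q = 0.000955 in the authors' deposited table). In hepatocytes Dusp1 was 19.2 in Double KO, 18.9 in Shp2 KO and 30.1 in IkkB KO, against 35.6 in WT. There IkkB KO against WT did not pass (q = 0.558 in the authors' deposited table). Of 16 other Ets factors and Cic, 0 of 14 tested passed in Shp2 KO liver by Cuffdiff, with 2 at an unadjusted p under 0.05, and Elf3, an epithelial factor, rose in Shp2 KO hepatocytes (1.47, against 0.304 in WT).

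Upstream of these genes some receptors fell. Of 14 receptor genes, 3 fell in Shp2 KO of both tables: Egfr, Fgfr2 and Fgfr3, of 13 tested in liver, against 4.10% of all tested genes, and 12 in hepatocytes, against 4.53%. Fgfr1 rose in Shp2 KO hepatocytes. Egfr, which binds epidermal growth factor, was 60.0 in Double KO, 71.6 in Shp2 KO and 89.3 in IkkB KO, against 139 in WT liver. Fgfr2 was 5.50 in Double KO, 2.68 in Shp2 KO and 6.92 in IkkB KO, against 6.53 in WT liver, and in hepatocytes 4.58, 3.19, 15.6 and 13.1. Of 19 genes for adaptors, Ras, Raf, Mek and Erk, Ptpn11 itself fell in Shp2 KO of both tables and Map2k1, which encodes Mek1, rose in Shp2 KO liver (28.0 in Shp2 KO and 19.7 in WT, q = 0.0438 in the authors' deposited table). Among 15 ligand genes, Fgf1 fell and Fgf21, a hepatocyte hormone, rose in Shp2 KO of both tables, of 10 tested in each. In Shp2 KO hepatocytes 5 of the 10 ligands rose in all, against 7.13% of all tested genes. Fgf21 was 13.2 in Double KO, 7.46 in Shp2 KO and 1.496 in IkkB KO, against 3.12 in WT liver. In hepatocytes it was 9.23 in Double KO, 6.09 in Shp2 KO and 3.76 in IkkB KO, against 0.777 in WT. Fgf21 in IkkB KO thus fell in liver (q = 0.0303) and rose in hepatocytes (q = 0.00413), in the authors' deposited table.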

How the data were processed

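PolyA RNA libraries were made with the Illumina TruSeq v2 kit, and FastQC, Cuffdiff and mm9 are named per the submitters' processing notes. The sources used here do not give aligner, annotation, versions or strand, so overlapping and antisense genes are uncertain. For each gene the authors deposited 1 pooled level per genotype, whose header names no unit (other), read here as FPKM by convention. The deposited log2 fold changes are ratios of these values. The authors' Cuffdiff run gave the deposited p-value and, adjusted for many tests, q-value, and the deposited test statistic, a score, was not used. Liver had 6 pairs of genotypes and hepatocytes 5, and 0 columns held values of single samples. Recomputed over all pairs of a table, q differed by up to 5.27e-07 in liver and 0.284 in hepatocytes, where the deposited q was kept.

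Genes were called at q under 0.05 where Cuffdiff tested them and a value reached 0.1. Differences are log2(value + 1). Genes too abundant to test were left out of marker sums and likeness. The 15 lists hold 9 pathway and 6 marker lists. Members and lists were chosen with earlier results of these data known. Genes named from lists passed in Shp2 KO against WT, up to 4 per list, those in both tables first; the 3 most alike genes were named for Spry4, Dusp6 and Ccnd1. Python 3.11.15, numpy 2.4.6, pandas 2.3.3 and matplotlib 3.10.9 were used; adjustment and likeness were tested on simulated data. Alternatives were other thresholds, filters, pseudocounts, centring and adjustment within a pair.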

Additional observations from a re-analysis of the deposited data

How the results depend on the processing

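Depth is unknown, 1 value stands for 3 replicates, and no replicate could be left out. No paired analysis was possible because the tables hold no value per replicate. Of 110 differences (10 genes in 11 pairs), all kept their direction with a pseudocount of 0.1 and as plain ratios. After centring on the median of all tested genes 109 did, and Etv4 in Double KO against WT hepatocytes turned to -0.0091. All 11 counts of called genes were the same without a filter on values.

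All changed counts follow, with the count as reported in brackets. With q under 0.01, Double KO against WT had 2 (4) in liver and 3 (5) in hepatocytes, Shp2 KO against WT hepatocytes 4 (6), Double KO against Shp2 KO 4 (5) in liver and 0 (1) in hepatocytes, and Double KO against IkkB KO 3 (4) in liver and 5 (6) in hepatocytes. With p adjusted within the pair, hepatocytes had 4 (5) in Double KO and 5 (6) in Shp2 KO against WT, 5 (6) in Double KO against IkkB KO and 0 (1) against Shp2 KO, where 2 genes had an unadjusted p under 0.05; Double KO against IkkB KO liver had 5 (4). With a minimum value of 1, Shp2 KO against WT had 5 (7) in liver and 4 (6) in hepatocytes, Double KO against WT liver 3 (4), IkkB KO against WT hepatocytes 3 (4), Double KO against Shp2 KO liver 3 (5) and Shp2 KO against IkkB KO liver 5 (6).

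Requiring also a log2(value + 1) difference of at least 1 left, in liver, 0 (4) in Double KO and 3 (7) in Shp2 KO against WT, 1 (5) in Double KO against Shp2 KO, 1 (4) against IkkB KO and 3 (6) in Shp2 KO against IkkB KO. In hepatocytes it left 1 (5) in Double KO, 2 (6) in Shp2 KO and 1 (4) in IkkB KO against WT, 0 (1) in Double KO against Shp2 KO and 2 (6) against IkkB KO. This scale compresses differences of values near or below 1. With the authors' log2 ratio of at least 1 instead, added after the data were seen, Double KO against WT had 3 (4) in liver and 2 (5) in hepatocytes, IkkB KO against WT hepatocytes 3 (4), Double KO against Shp2 KO 4 (5) in liver and 0 (1) in hepatocytes, and Double KO against IkkB KO 2 (4) in liver and 4 (6) in hepatocytes. In Double KO against WT liver 5 genes had an unadjusted p under 0.05.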

Other observations

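Genes of later cell cycle phases rose in several knockout groups, also where Ccnd1 fell. Of 15 genes of S phase and mitosis, 9 of 15 tested rose in Shp2 KO liver, where Ccnd1 fell, against 5.23% of all tested genes that rose, with a median difference of 0.41 on the log2(value + 1) scale and -0.03 over all tested genes. In Double KO 12 of 15 rose in liver, against 11.5% of all tested genes, with a median of 0.95 and -0.03 over all. In Double KO hepatocytes 14 of 15 rose, against 9.04%, with a median of 1.18 and 0.01 over all. In hepatocytes 5 of 14 rose in Shp2 KO, against 7.13%, and 8 of 14 in IkkB KO, against 7.60%, and in IkkB KO liver 1 of 12 rose, against 2.37%. Mki67, a marker of dividing cells, was 1.18 in Double KO, 0.533 in Shp2 KO and 0.215 in IkkB KO, against 0.184 in WT liver, and 1.68, 0.56, 0.585 and 0.133 in hepatocytes. Cdk1, the mitotic kinase gene, was 3.16 in Double KO, 1.78 in Shp2 KO and 0.707 in IkkB KO, against 0.698 in WT liver. Among 14 other G1 genes, E2f1 was the 1 that passed in Shp2 KO liver, 3.08 against 1.67 in WT, a share near the 5.23% of all tested genes that rose. The inhibitor gene Cdkn1a was 14.3 in Double KO, 6.38 in Shp2 KO and 2.73 in IkkB KO, against 11.5 in WT hepatocytes. In liver it was 7.98 in Double KO, 2.14 in Shp2 KO and 1.09 in IkkB KO, against 1.80 in WT. Cdkn1a in Double KO rose in liver (q = 0.000955) and did not pass in hepatocytes (q = 0.449), in the authors' deposited table. Macrophage marker sums were above WT in the same knockouts, and the part of other dividing cells was not tested.

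Immediate early genes, which Erk and other kinases induce within minutes, were mixed. Of 14 such genes, 2 of 10 tested fell in Shp2 KO liver, Phlda1 and Ier2, against 4.10% of all tested genes, with a median of 0.04 and -0.03 over all. Phlda1 was 29.7 in Double KO, 28.9 in Shp2 KO and 53.5 in IkkB KO, against 53.5 in WT liver. Its hepatocyte values were 47.9 in Double KO, 40.5 in Shp2 KO and 58.3 in IkkB KO, against 107 in WT. Phlda1 and Ier2 thus also fell in IkkB KO hepatocytes (q = 0.00263 and 0.0108 in the authors' deposited table). In Shp2 KO hepatocytes 3 fell (Phlda1, Ier2 and Egr1) and 2 rose (Myc and Ier3, the last named after its value was seen) of 10 tested, against 4.53% of all tested genes that fell and 7.13% that rose. Egr1 was 5.50 in Double KO, 1.80 in Shp2 KO and 5.39 in IkkB KO, against 5.95 in WT hepatocytes, so Shp2 KO alone was low there. In liver it was 4.33 in Double KO, 2.65 in Shp2 KO and 2.81 in IkkB KO, against 3.94 in WT. No liver knockout passed against WT for Egr1 (q from 0.0942 to 0.842 in the authors' deposited table).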
